A study of Mus musculus with 26 samples.

Results

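The microRNA pathway genes described here are Drosha, Dgcr8, Xpo5, Dicer1, Ago1, Ago2, Ago3, Tnrc6a, Tnrc6b and Tnrc6c, chosen by their gene symbols in the deposited tables. All 10 were listed, each by 1 canonical coding transcript, among 8530 transcripts of the OPC table and 9751 of the oligodendrocyte (OL) table, and all 10 had a half-life in every replicate, as did 8112 transcripts in all. The cells were mouse oligodendrocyte progenitor cells (OPCs) derived from 129S/SvEv epiblast stem cells and grown with bFGF and PDGFA, and the OLs made from them in medium with thyroid hormone T3, noggin, IGF-1, cyclic AMP and NT3. RNA was labelled with 5-ethynyluridine (5-EU), a uridine analogue, for about a day; the label was then chased with uridine, and labelled RNA was captured and sequenced at 0, 1, 2, 4 and 6 h of chase, 1 plate for each time point. There were 3 OPC replicate series and 2 OL series, 25 libraries in all, and the study states that the OL replicates were matched to OPC replicates without giving the numbers. An OPC library without biotin was not used here.

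MicroRNAs are made in steps, and the 10 genes cover each of them. In the nucleus the Microprocessor, formed by the nuclease DROSHA and its RNA-binding partner DGCR8, cuts a hairpin out of the primary transcript; XPO5 (exportin 5) carries the hairpin to the cytoplasm, where DICER1 trims it to a short duplex. An Argonaute protein (AGO) keeps one strand of the duplex and pairs it with target mRNAs, mostly through the seed, bases 2 to 8, and the TNRC6 (GW182) proteins recruited by AGO bring in the deadenylases that shorten the target's tail. In the oligodendrocyte lineage this pathway is known for its need in differentiation: loss of Dicer1 impairs myelination, and miR-219 and miR-338 rise as OPCs differentiate.

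Dgcr8 is a substrate of the machine it belongs to, since its own mRNA carries hairpins that the Microprocessor can cut. In the GENCODE M21 annotation of GRCm38, 2 RefSeq hairpins lay within exon 2 of the Dgcr8 transcript on its own strand (chromosome 16, minus). Mir1306 (chr16:18284239-18284317) lay in the coding part and Gm24572 (chr16:18284550-18284637) upstream of the start codon. The Mir1306 hairpin is shown because it is coding sequence of a member, with its 2 mature arms in capitals.
Mir1306 hairpin: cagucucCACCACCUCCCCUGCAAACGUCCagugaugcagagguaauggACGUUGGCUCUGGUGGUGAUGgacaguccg
Hairpins also lay on the sense strand in an intron of Xpo5 (Mir693) and in exon 25 of Tnrc6b, within its 3′ UTR (Mir5113).

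The 3′ UTRs of the members were searched for the complement of the seed in 4 microRNAs: miR-219a-5p, miR-338-3p and miR-138-5p, which are known from oligodendrocytes, and let-7a-5p, a widely expressed one. They are shown, with the seed in capitals, because a reader can match them to the 3′ UTR windows below.
miR-219a-5p: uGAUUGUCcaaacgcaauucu
miR-338-3p: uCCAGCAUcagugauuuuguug
miR-138-5p: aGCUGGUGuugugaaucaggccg
let-7a-5p: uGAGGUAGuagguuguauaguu
The search ran on the transcript strand only, over 8090 3′ UTRs of transcripts listed for both cell types. The letters GACAATC, for miR-219a-5p, were found in 4.47% of them. The letters ATGCTGG, for miR-338-3p, were found in 14.0%. For miR-138-5p CACCAGC was in 14.4%, and for let-7a-5p CTACCTC was in 9.62%. Ago2 held matches to all 4, with 1 to miR-219a-5p, 2 to miR-338-3p, 2 to miR-138-5p and 3 to let-7a-5p. It was the only member with GACAATC. Ago3 held 1 match to miR-338-3p and 1 to let-7a-5p, and Dicer1 held 1 to miR-138-5p. In the windows below, 15 bases of 3′ UTR precede the match, which is in capitals. They are shown for the GACAATC match of Ago2 and for the 2 members whose labelled RNA had both OL values above the OPC ones.
Ago2, miR-219a-5p, chr15:73102848-73102869, minus strand: gctacacagacagtgGACAATC
Ago3, miR-338-3p, chr4:126343217-126343238, minus strand: ctctctctattgcccATGCTGG
Ago3, let-7a-5p, chr4:126335041-126335062, minus strand: ggcacctgccctcacCTACCTC
Dicer1, miR-138-5p, chr12:104688581-104688602, minus strand: gttcccgtgtacagtCACCAGC
Matches also stood in Ago1 (2 to miR-338-3p, 1 to miR-138-5p) and Tnrc6b (1 to each of these), and none of the 4 strings was in Drosha, Dgcr8, Xpo5, Tnrc6a or Tnrc6c. Length goes with this count: Ago3 (12742 bases), Tnrc6b (11609) and Ago2 (11064) had 3′ UTRs above the 99th percentile of the listed transcripts, and of 49 transcripts, Ago2 included, with a 3′ UTR within 25% of that length, 44.9% held GACAATC. A match is a string of letters and not a measured site.

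The transcripts of the members are long. All 10 were longer than the median listed transcript of 3099 bases, from 4320 bases (Dgcr8) to 17332 (Tnrc6b), with coding regions from 2319 to 5718 bases against a median of 1401. The 3′ UTR of Drosha, at 169 bases, was the exception, shorter than the median of 1096 bases. By codon use, Ago1 and Ago2 ended 65.9% and 65.2% of their codons in G or C, while Ago3, of the same coding length as Ago2, did so in 42.7%, against a median of 60.6% over 10090 transcripts. The share of phenylalanine codons written UUU was 75.0% in Tnrc6a and 68.6% in Dicer1 and 30.3% in Ago1, around a median of 44.4%, and AAA made up 57.4% of the lysine codons of Ago3 and 30.9% of those of Ago1, around a median of 37.5%.

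Ago3 and Ago1 are neighbours on chromosome 4, both on the minus strand, with Ago1 (chr4:126435012-126468583) 5455 bases upstream of Ago3 (chr4:126332732-126429556). Drosha (chr15:12824863-12935291, plus), Ago2 (chr15:73095844-73184935, minus) and Tnrc6b (chr15:80711313-80941085, plus) share chromosome 15. The other members lie at chr16:18253948-18289246 (Dgcr8, minus), chr17:46202782-46243598 (Xpo5, plus), chr12:104687742-104751952 (Dicer1, minus), chr7:123124181-123195296 (Tnrc6a, plus) and chr11:117654289-117763437 (Tnrc6c, plus). Paralogs shared few stretches that a short read could not assign: of the 25-base words in the Ago1 transcript, 2.03% were also in Ago3 and 0.403% in Ago2, Ago2 and Ago3 shared none, and Tnrc6a and Tnrc6c shared 2 words. Whether counting used strand is not given in the sources used here.

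The values are FPKM, the authors' reads scaled to transcript length and library size, and by the study's methods each time point was then scaled to spike-ins. What part the spike-ins have in the 0 h values is unknown, so the scale of 0 h differences between libraries is too. The read depth of the libraries is also unknown. The labels were checked against marker genes. The summed 0 h FPKM of 7 oligodendrocyte markers (Mbp, Cnp, Mog, Mag and others) was 37.6 to 55.1 in the OPC libraries, where 2 of them were listed, and 5264 and 2377 in the OL libraries. The OPC markers did not all follow the label: Pdgfra and Vcan were higher in OLs, and the sum of 4 OPC markers was 191 to 329 in OPCs and 252 and 259.8 in OLs. Of 4 astrocyte markers 1 was listed in OPCs and 3 in OLs (Gfap and Aldh1l1 in OLs alone), with sums of 179 to 224 and of 104 and 165. Of 4 neuron markers 1 and 2 were listed, with sums of 13.2 to 17.4 and of 25.9 and 27.7, and none of 4 microglia markers was listed. The part of other cells in the results below was not tested, and in such bulk samples fewer cells of a type and less RNA per cell cannot be told apart.

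At the start of the chase Ago3 was the member that differed most between the cell types. Its labelled RNA was higher in OLs, while that of Xpo5, Ago1 and Drosha was lower. Tested with limma on log2(FPKM + 1) and adjusted by Benjamini-Hochberg over all 8177 transcripts listed for both cell types, 1 of 10 members was higher in OLs (background 13.8% of transcripts) and 3 of 10 were lower (background 15.8%). The median difference over the members was −0.28 on this log2 scale, and over all transcripts −0.01. By range, both OL replicates lay above all 3 OPC replicates for 2 members (28.0% of all transcripts) and below them for 5 (31.4%).

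**Figure D1:**
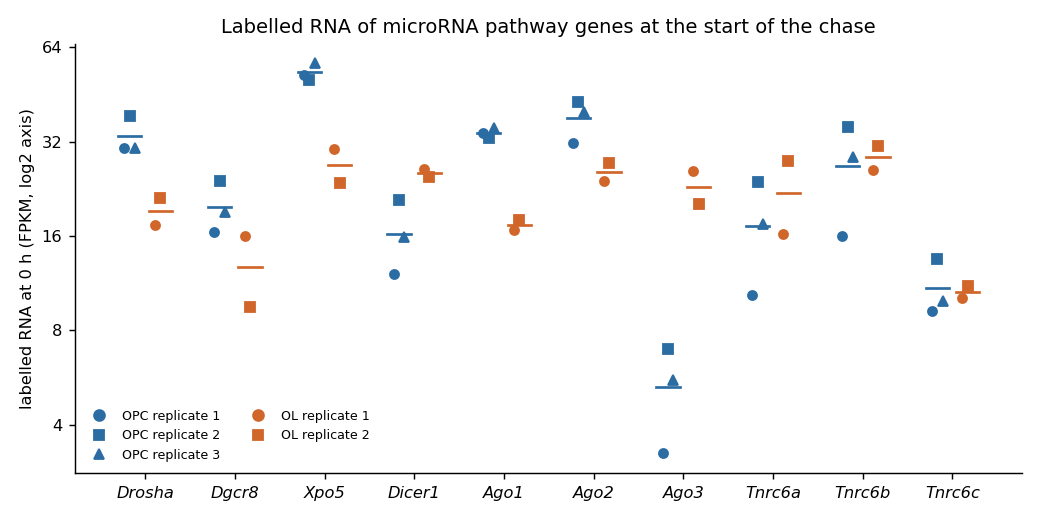
Labelled RNA at 0 h of chase, in FPKM on a log2 axis, for the 10 genes in the order of their steps; points are replicates (blue OPC, orange OL) and bars group means. Ago3 rose from 3.24 to 6.995 FPKM in OPCs to 20.3 and 25.7 in OLs, and Xpo5, Ago1, Ago2, Drosha and Dgcr8 had both OL points below all OPC points.

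For the Microprocessor, Drosha had 30.6, 38.7 and 30.6 FPKM in OPC replicates 1 to 3 and 17.4 and 21.1 in the OLs. The groups did not overlap, and Drosha was lower in OLs by 0.76 ± 0.23 (SE) on the log2 scale (limma, adjusted p = 0.0388). Leaving out 1 replicate at a time, the call held only without OPC replicate 1; the adjusted p was 0.0714 without OPC replicate 2, 0.102 without OPC replicate 3, 0.206 without OL replicate 1 and 0.0910 without OL replicate 2. Dgcr8 had 16.4, 23.9 and 19.1 FPKM in OPCs and 16.0 and 9.47 in OLs. Its highest OL value stood just under its lowest OPC value, and its difference of −0.62 ± 0.28 did not pass the test (adjusted p = 0.130). That difference hung on the OL replicate used, at −0.97 without OL replicate 1 and −0.27 without OL replicate 2.

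Xpo5, the nuclear exporter, had the highest level of the 10 in OPCs, with 52.3, 50.4 and 56.8 FPKM. In OLs it had 30.3 and 23.7 FPKM, 1.97-fold lower by the means, and the groups were far apart. It was lower by 0.96 ± 0.22 on the log2 scale (limma, adjusted p = 0.0145), a call that was lost without OPC replicate 3 (adjusted p = 0.0715) and without OL replicate 2 (0.0991). Dicer1, the next enzyme, had 12.1, 20.8 and 15.9 FPKM in OPCs and 26.2 and 24.7 in OLs. Both OL values exceeded the OPC ones, but the difference of 0.65 ± 0.26 did not pass over all transcripts (adjusted p = 0.0987), except without OPC replicate 2 (0.0396).

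The Argonautes did not move together. Ago1 had 34.0, 32.9 and 35.4 FPKM in OPCs and 16.7 and 18.0 in OLs, close replicates in both groups. It was lower in OLs by 0.94 ± 0.20 (adjusted p = 0.0120), a call lost without OPC replicate 3 (0.0641), OL replicate 1 (0.0840) or OL replicate 2 (0.0564). Ago2, the Argonaute that can itself cut a target, had 31.6, 42.8 and 39.7 FPKM in OPCs and 24.0 and 27.3 in OLs, apart but with a difference of −0.54 ± 0.23 that did not pass (adjusted p = 0.108). Ago3 had 3.24, 6.995 and 5.56 FPKM in OPCs and 25.7 and 20.3 in OLs, a mean of 5.26 ± 1.90 (SD, n = 3) against 23.0 ± 3.87 (SD, n = 2). Its lowest OL value was far above its highest OPC value, and the ratio of the means was 4.37. The difference of 1.98 ± 0.30 on the log2 scale passed in full (limma, adjusted p = 0.00276) and without any 1 of the replicates, with adjusted p-values from 0.000973 to 0.0426. With the replicate number as a block (replicate block), Ago3 held (adjusted p = 0.000175; 11.9% of all transcripts were higher), and the 0 h calls of Xpo5 (0.0550), Ago1 (0.0547) and Drosha (0.0864) were lost.

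Within the Argonaute family the makeup differed more than the sum. Ago1, Ago2 and Ago3 together had 68.9, 82.7 and 80.7 FPKM in OPCs and 66.4 and 65.6 in OLs. Ago3 made up 4.70%, 8.46% and 6.89% of that sum in OPC replicates 1 to 3 and 38.8% and 30.9% in OL replicates 1 and 2. The share of Ago1 went the other way, from 39.8% to 49.4% in OPCs to 25.1% and 27.5% in OLs, and that of Ago2 was 45.9% to 51.7% in OPCs and 36.1% and 41.6% in OLs. These shares restate the levels above and were not tested. Ago4, the remaining Argonaute, was listed in the OL table only, at a mean of 1.88 FPKM.

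**Figure D2:**
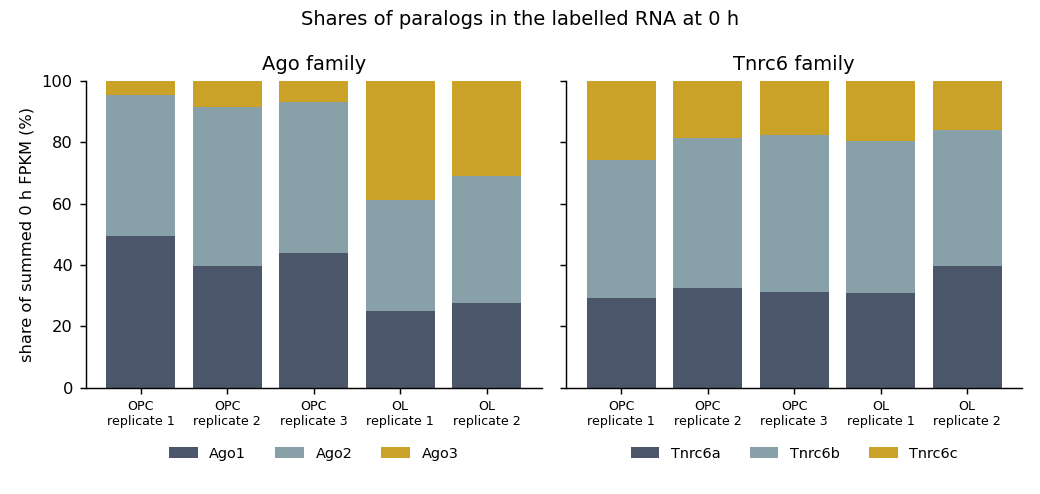
Share of each paralog in the summed 0 h FPKM of its family, in percent, by replicate. Ago3 takes 4.70% to 8.46% of the Ago bar in the 3 OPC libraries and 30.9% and 38.8% in the 2 OL libraries, while the Tnrc6 bars overlap between cell types.

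The TNRC6 scaffold genes overlapped between the cell types. Tnrc6a had 10.4, 23.8 and 17.5 FPKM in OPCs and 16.2 and 27.8 in OLs, Tnrc6b had 16.0, 35.6 and 28.6 and then 26.0 and 31.0, and Tnrc6c had 9.21, 13.5 and 9.93 and then 10.2 and 11.1. Their differences were 0.36 ± 0.37, 0.15 ± 0.33 and −0.02 ± 0.24 on the log2 scale, none past the test (adjusted p = 0.484, 0.753 and 0.970). All 3 were lowest in OPC replicate 1 and highest in replicate 2 among the OPCs, and Tnrc6b made up 44.3% to 51.1% of the family's sum in all 5 libraries.

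Ranked by mean 0 h FPKM, the OPCs had Xpo5 (53.2), Ago2 (38.0), Ago1 (34.1), Drosha (33.3), Tnrc6b (26.7), Dgcr8 (19.8), Tnrc6a (17.2), Dicer1 (16.3), Tnrc6c (10.9) and Ago3 (5.26). Only the first and last steps of that order separated neighbours whose ranges did not overlap, namely Xpo5 above Ago2 and Tnrc6c above Ago3. In OLs the order was Tnrc6b (28.5), Xpo5 (27.0), Ago2 (25.6), Dicer1 (25.4), Ago3 (23.0), Tnrc6a (22.0), Drosha (19.2), Ago1 (17.3), Dgcr8 (12.8) and Tnrc6c (10.6). There only Ago1 and Dgcr8 were neighbours with ranges apart. FPKM divides by the length of 1 transcript, so a level rests on that transcript being the one in use.

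The chase asks how fast the labelled RNA was lost. Every member declined in both cell types: a slope over 0 to 6 h, on log2(FPKM + 1) with spike-in scaling, was below 0 for 10 of 10 members in OPCs (background 81.7% of transcripts; adjusted p from 5.52e-08 to 7.68e-05) and for 10 of 10 in OLs (background 68.4%; adjusted p from 5.36e-06 to 0.0463). The median slope of the members was −0.44 units per h in OPCs, beside −0.38 for all transcripts, and −0.25 in OLs, beside −0.20. With each library brought to the median of its own 0 h library, Ago3 and Ago1 were called as rising in OPCs, as were 3392 of 8530 transcripts. In OLs Xpo5 was then called as rising (3046 of 9751 transcripts). Only Dgcr8 and Ago2 were still called as falling, in OLs (1345 of 9751 transcripts). In OLs the call of Xpo5 was lost without either replicate (adjusted p = 0.176 and 0.235), and that of Tnrc6c without OL replicate 2 (0.206). Without the 6 h libraries 8 of 10 members declined in OLs (46.7% of all transcripts), and the calls of Xpo5 (slope −0.04, adjusted p = 0.701) and Drosha (0.0890) were lost; that of Xpo5 was also lost with a pseudocount of 0.1 (0.0580) and with no replicate block, which drops the intercept of each replicate series (0.0593). Of the 0 h level, the median transcript kept 10.98% to 17.7% at 6 h in OPCs and 31.5% and 36.6% in OLs, and the median member 10.5% to 17.6% and 31.4% and 25.1%.

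**Figure D3:**
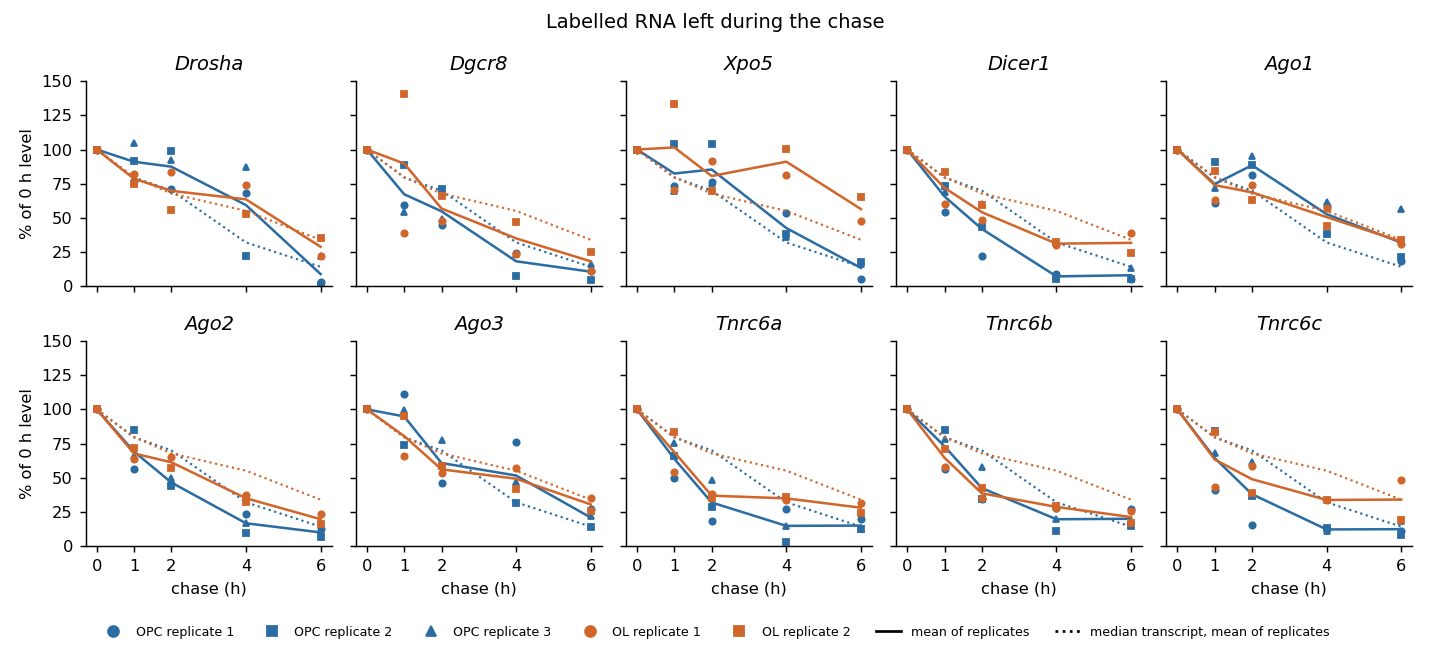
Labelled RNA left, in percent of the 0 h level, against hours of chase, 1 panel for each gene; points are replicates, solid lines means, and dotted lines the median transcript of each cell type. Xpo5 in OLs varies from 69.7% to 133% of its 0 h level over 1 to 4 h and is at 81.7% and 101% at 4 h, whereas Dicer1 in OPCs is at 5.13% to 9.20% by then.

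Compared between cell types, the chase was shallower in OLs for 4 of 10 members (Xpo5, Drosha, Dicer1 and Ago2) and steeper for none. Of all transcripts 32.1% were shallower. The test counts single libraries, so its p-values do not measure the spread of slopes between the 3 OPC and 2 OL series. Series by series, Drosha had slopes of −0.57, −0.81 and −0.31 in OPCs and −0.28 and −0.21 in OLs. Those of Xpo5 were −0.56, −0.43 and −0.40 in OPCs and −0.13 and −0.10 in OLs. The median difference of the members was 0.17 units per h and that of all 8177 transcripts 0.14, so the members moved with the transcripts at large. At 6 h both OL replicates kept more than all 3 OPC replicates for 5 members, against 48.9% of all transcripts.

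At 4 h Xpo5 kept 53.9%, 38.3% and 35.8% of its 0 h level in OPCs and 81.7% and 101% in OLs, and at 6 h 5.73%, 18.2% and 16.6% against 47.5% and 65.5%. No OL value fell among the OPC values at either time. Its slopes were −0.46 ± 0.06 in OPCs and −0.11 ± 0.05 in OLs, a difference of 0.35 ± 0.08 units per h (limma, adjusted p = 0.00330), which just missed the threshold without OL replicate 2 (0.0509). Without the 6 h libraries the difference was 0.25 and the call was lost (adjusted p = 0.0772). In Drosha the gap lay at the last time point: at 4 h the OPC replicates kept 68.6%, 22.1% and 87.6% and the OLs 74.3% and 53.0%, and at 6 h 3.38%, 1.19% and 22.5% against 22.5% and 35.4%. OPC replicate 3 stood apart from the other two OPC series there and level with the lower OL value. The difference in slope was 0.32 ± 0.12 (adjusted p = 0.0467), and of the 5 left-out replicates the call held only without OPC replicate 3 (0.00923; otherwise 0.0542 without OPC replicate 1, 0.223 without OPC replicate 2, 0.163 without OL replicate 1 and 0.257 without OL replicate 2). Without the 6 h libraries it was 0.08 (adjusted p = 0.684), again no call, and the call was also lost with a pseudocount of 0.1 (0.0598) and with no replicate block (0.0519).

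Dicer1 and Ago2 were lost quickly in OPCs. Dicer1 kept 9.20%, 5.13% and 7.79% at 4 h in OPCs and 30.2% and 32.4% in OLs, with the groups well apart. The difference in slope was 0.27 ± 0.09 (adjusted p = 0.0207), lost without OPC replicate 2 (0.0711), OL replicate 1 (0.219) or OL replicate 2 (0.0679). Ago2 kept 23.9%, 9.56% and 16.99% at 4 h in OPCs and 37.6% and 32.6% in OLs, again apart. Its difference of 0.19 ± 0.06 (adjusted p = 0.0273) was lost without the same 3 replicates (0.131, 0.255 and 0.0852). Both calls held without the 6 h libraries, at 0.37 for Dicer1 (adjusted p = 0.0138) and 0.28 for Ago2 (0.0419).

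For the other members the difference did not pass, at 0.19 ± 0.09 for Tnrc6c (adjusted p = 0.0902), 0.16 ± 0.10 for Tnrc6a (0.246), 0.14 ± 0.08 for Dgcr8 (0.182), 0.06 ± 0.08 for Tnrc6b (0.619), 0.05 ± 0.07 for Ago1 (0.630) and 0.01 ± 0.06 for Ago3 (0.889). With the pseudocount of 1, Ago1 and Ago3 thus had nearly the same slope in both cell types. It was −0.27 and −0.23 for Ago1 and −0.26 and −0.25 for Ago3, while the median of all transcripts was shallower in OLs. Ago3 was low in OPCs, and with a pseudocount of 0.1 its slopes were −0.36 in OPCs and −0.27 in OLs. That difference of 0.09 did not pass (limma, adjusted p = 0.302), and the median over all transcripts was then 0.22. Each library was next brought to the median of its own 0 h library, with the pseudocount of 1 only. Relative to the other transcripts, Ago1 and Ago3 were then steeper in OLs: Ago3 by 0.20 ± 0.05 units per h (limma, adjusted p = 0.00988) and Ago1 by 0.17 ± 0.06 (0.0306). These 2 of 10 members stand beside a background of 22.5% of all transcripts called steeper on that scale, so the count is near the background. On that scale the median difference over all transcripts moved from 0.14 to −0.07, the 4 calls above were lost, and the sign turned for 7 members; Xpo5, Drosha and Dicer1 kept theirs, at 0.14, 0.11 and 0.05.

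**Figure D4:**
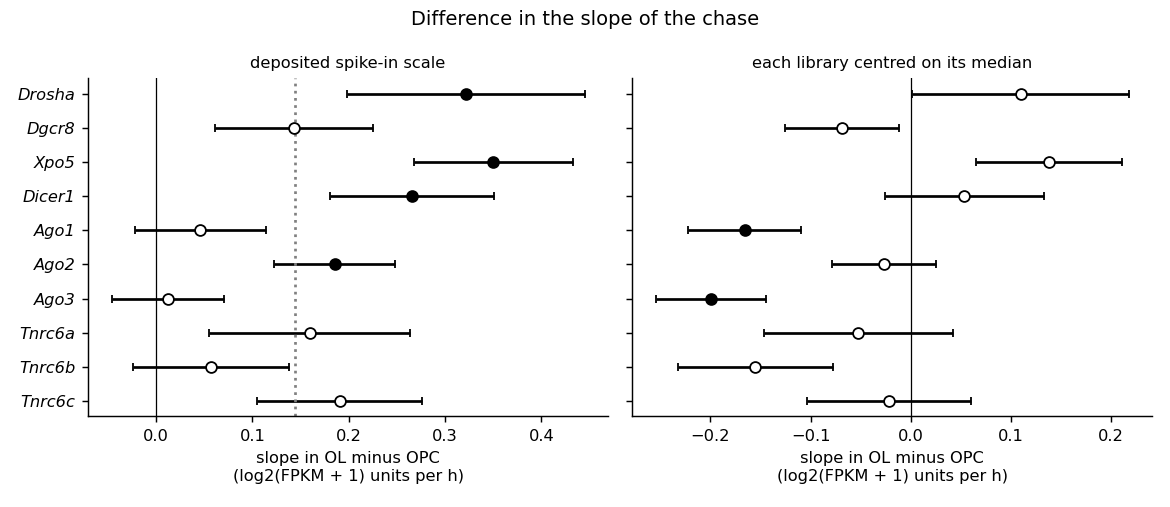
Difference in the slope of the chase, OL minus OPC, in log2(FPKM + 1) units per h, with bars of 1 SE; filled points have an adjusted p under 0.05 and the dotted line is the median of all transcripts. On the deposited spike-in scale (left) Xpo5, Drosha, Dicer1 and Ago2 are filled and to the right of 0; with each library centred on its median (right), Ago3 and Ago1 are filled and to the left.

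The authors' half-lives, an exponential fit to each replicate with values over 6 h set to 6 h, differed among the members. In OPCs Ago1, Drosha, Xpo5 and Ago3 stood above the middle of all transcripts (mean percentile 72.7, 62.0, 59.6 and 57.9), and the other members below it. In OLs only Xpo5 and Drosha stood above it (79.7 and 62.3). No member passed the test between cell types (limma on log2 half-life; 0 of 10), where 3.54% of 8112 transcripts passed in either direction. At an unadjusted p under 0.05 it was 2 of 10, Ago2 and Xpo5, near the 23.0% of all transcripts. The median difference was 0.53 on the log2 scale for the members and 0.37 for all transcripts. Both OL half-lives were above all 3 OPC ones for 4 members (Xpo5, Dicer1, Ago2 and Tnrc6c; 35.9% of all transcripts) and below them for none (2.01%). The median member had a half-life of 1.74, 1.83 and 2.47 h in OPC replicates 1 to 3 and of 2.74 and 2.90 h in OLs, beneath the median of all transcripts in each series (2.35, 2.08 and 2.83 h, and 4.54 and 4.44 h).

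By their means the longest-lived were Xpo5, Drosha and Ago1. Xpo5 had half-lives of 4.48, 2.89 and 2.70 h in OPCs and stood at the 6 h ceiling in both OL series, so that its difference is a lower bound and its OL spread is not measured (0.88 ± 0.28 on the log2 scale, adjusted p = 0.194, and 0.0364 without OPC replicate 1). Drosha ranged from 1.96 h to the ceiling in OPCs and had 4.01 h and the ceiling in OLs, with replicates too far apart to tell the cell types from each other. Ago1 had 5.26, 2.87 and at least 6 h in OPCs and 4.59 and 3.41 h in OLs, the only member whose mean was lower in OLs (4.71 ± 1.64 h, SD, n = 3, and 4.00 ± 0.84 h, n = 2).

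Ago2 had 1.76, 1.70 and 1.68 h in OPCs, the closest replicates of the 10 there, and 2.85 and 2.47 h in OLs. The difference of 0.63 ± 0.08 missed the threshold (adjusted p = 0.0543) and passed without OL replicate 2 (0.0432). Ago3 had 3.17, 2.40 and 3.67 h in OPCs and 3.98 and 3.08 h in OLs, overlapping ranges, beside its higher 0 h level in OLs. Dicer1 had 1.14, 1.67 and 2.05 h and then 2.31 and 2.69 h, and Dgcr8 had 1.72, 1.96 and 1.96 h and then 1.89 and 3.31 h. In OPC replicate 2 the fit gave exactly 1.95713 h for Dgcr8 and for Drosha, whose chases differed. Zswim8 and Tarbp2, named below, had the same value there. Such a shared value of the fit does not tell these genes apart, and its cause was not tested. The TNRC6 genes were short-lived, with 0.994 to 1.90 h for Tnrc6a, 1.303 to 2.47 h for Tnrc6b and 0.772 to 2.46 h for Tnrc6c in OPCs. In OLs they had 1.45 and 2.71 h, 1.33 and 2.29 h, and 2.63 and 2.55 h.

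Rank within a series sets aside the longer half-lives of OLs only in part. More transcripts stood at the 6 h ceiling in each OL series than in any OPC series. Transcripts at the ceiling share a rank, so the highest possible rank is lower in OLs. Among 8112 transcripts Ago1 stood at the 73.1, 60.8 and 84.2 percentile of half-life in OPCs and at 50.4 and 37.7 in OLs, and Ago3 at 60.4, 55.6 and 57.7 and then at 45.4 and 32.4. For these 2 of the 10 members the OL ranks lay below all OPC ranks, as they did for 30.6% of all transcripts. That share includes transcripts at the ceiling in all 5 series, whose shared rank is lower in OLs. It is thus too high as a background for measured ranks, and the 2 members cannot be weighed against it. Xpo5 went from 69.7, 61.1 and 48.0 to 78.8 and 80.6, the 1 member with both OL ranks above all OPC ranks (15.3% of all transcripts). Both of its OL ranks are the shared rank at the ceiling, as is the 84.2 of Ago1 in OPC replicate 3. Tnrc6a, Dicer1, Dgcr8 and Ago2 stood at or under the 36.1 percentile in all 5 series.

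**Figure D5:**
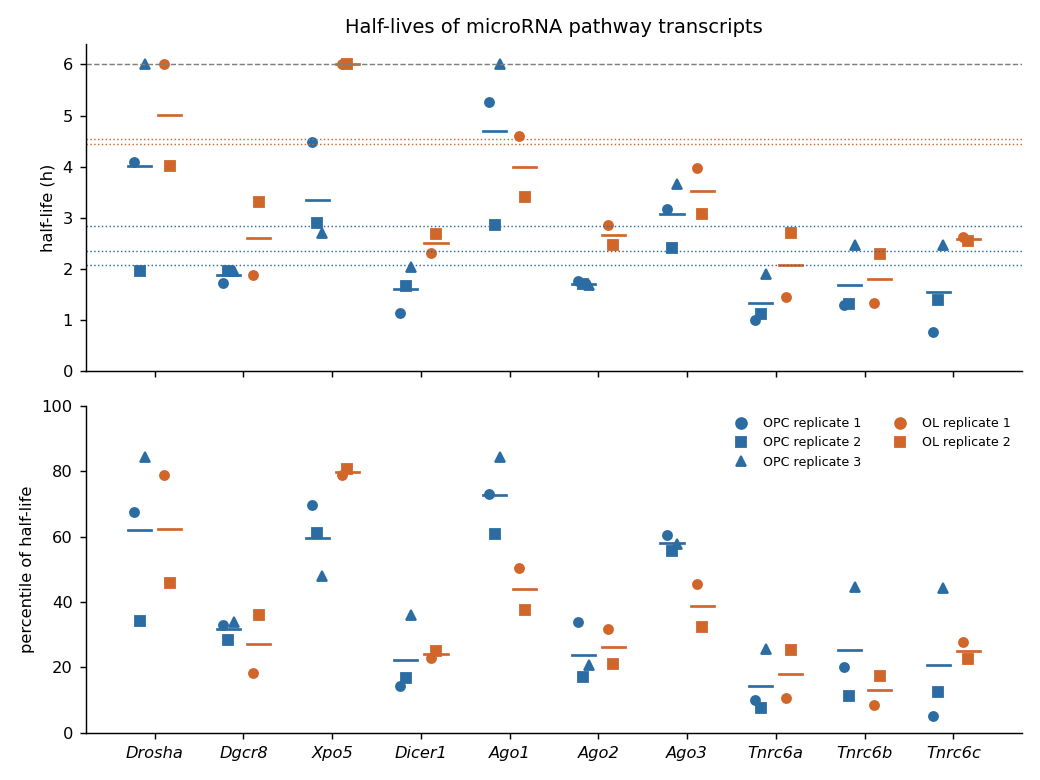
Half-lives in h (top) and their percentile among 8112 transcripts of the same series (bottom); points are replicates, bars group means, dotted lines the median of each series and the dashed line the 6 h ceiling. Xpo5 is at the ceiling in both OL series, Ago2 has 1.68 to 1.76 h in OPCs and 2.47 and 2.85 h in OLs, and Ago1 and Ago3 rank lower in OLs than in OPCs.

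For 9 members, the transcript with the most similar chase was found by the Euclidean distance of log2(percent of 0 h + 1) over the 20 libraries from 1 to 6 h. Ago2 lay nearest to Ccdc127 (1.04), Tnrc6b to Ubn2 (1.09), Ago1 to Alg10b (1.15), Xpo5 to Chmp3 (1.24) and Dgcr8 to Amd1 (1.34), where the median distance to all transcripts was 5.26 to 6.38. The nearest transcripts of Dicer1, Tnrc6a, Tnrc6c and Drosha were Zc3h4 (1.57), Prpf38b (1.58), Usp31 (1.76) and Uba2 (2.12). None of these had another member as its nearest. The closest pairs of members were Tnrc6b with Ago2 (2.08) and Tnrc6c with Dicer1 (2.09), and Ago1 and Ago3 were each other's closest member (2.29).

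Of 45 other genes of the pathway 36 were listed for both cell types, 3 in OLs only (Ago4, Tut4 and Xrn1), 2 in OPCs only (Lin28b and Trim71, both regulators of let-7), and 4 were not analysed here. At 0 h 10 of the 36 were lower in OLs and none higher, where 15.8% of all transcripts were lower and 13.8% higher; the median difference was −0.13, beside −0.01 over all transcripts. Among nuclear cofactors 3 of 8 were lower, including Ran, the GTPase that exportins carry cargo with, at −1.19 ± 0.21 (adjusted p = 0.00479), and Khsrp, a hairpin-binding protein, at −0.95 (0.0123). Of the 5 tested genes of RISC (the Argonaute complex) and its loading, 4 were lower: Gemin4, found with Argonaute complexes, at −1.61 ± 0.21 (0.00141), the chaperone Hsp90ab1, its co-chaperone Fkbp4, and Snd1, a nuclease found in RISC. The Dicer partner Prkra was lower (1 of 3), while Tarbp2 did not pass (−0.74, adjusted p = 0.0627). Of 17 silencing effectors 2 were lower, Cnot9 of the CCR4-NOT deadenylase (−1.35 ± 0.21, 0.00265) and the deadenylase Pan2 (−1.33 ± 0.22, 0.00386), and the other 15 did not pass. The calls of Ran, Gemin4, Cnot9 and Pan2 held without any 1 of the replicates, while those of the other 6 genes were each lost without at least 1, and the count fell to 4 without OL replicate 1, 4 without OL replicate 2 and 5 without OPC replicate 3, where 5.83%, 8.5% and 7.84% of all transcripts were lower. With the replicate block 7 of the 36 were lower (11.8% of all transcripts), and the calls of Prkra (adjusted p = 0.206), Hsp90ab1 (0.179) and the splicing factor Srsf3 (0.134) were lost; those of Prkra (0.0508) and Srsf3 (0.0528) were also lost with a pseudocount of 0.1.

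In the chase 11 of the 36 had a shallower slope in OLs and none a steeper one, near the background of 32.1%, and their median difference of 0.12 was beside 0.14 over all transcripts. They included Zswim8, part of the ligase that degrades Argonaute on certain targets, at 0.59 ± 0.08 (adjusted p = 5.49e-05), and the Dicer partner Tarbp2, at 0.55 ± 0.09 (0.000332). Among them were 6 effectors, with Edc4, a decapping scaffold, at 0.48 ± 0.09 (0.000694) and Cnot10 at 0.48 ± 0.13 (0.00832), and none of the 8 nuclear cofactors was. The count fell to 4 without OL replicate 1 and 5 without OL replicate 2, near the 9.06% and 11.9% of all transcripts that were shallower there; Cnot10 was then at 0.0930 and 0.0805, and Zswim8, Tarbp2 and Edc4 held without any 1 of the replicates. Without the 6 h libraries 7 of the 36 were shallower, near the 19.5% of all transcripts: Cnot10 was at 0.10 and its call was lost (adjusted p = 0.468), while Edc4 was at 0.30 and held (0.0401). With each library centred on its median, the same 3 were the ones shallower in OLs, and 9 of the 36 were steeper, where 4.17% of all transcripts were shallower and 22.5% steeper. By half-life Zswim8 alone of the 36 passed, longer in OLs at 1.60 ± 0.16 on the log2 scale (adjusted p = 0.0407), with 1.71, 1.96 and 2.33 h in OPCs and the ceiling in both OL series; that call held only without OPC replicate 3 (0.0433; otherwise 0.0738 without OPC replicate 1, 0.119 without OPC replicate 2, 0.148 without OL replicate 1 and 0.145 without OL replicate 2), and was lost with the replicate block (0.158), with each series centred on its median (an effect of 0.70, 0.105), with rescaling to 1 mean decay curve (0.0927) and with half-lives refitted without the 6 h libraries (0.704). Hsp90ab1, Snd1 and Ran stood at the 6 h ceiling in all 5 series, so no change in their half-life could be seen.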

How the data were processed

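Labelled RNA of 3 OPC and 2 OL replicate series was analysed. Per the study's methods, the authors clipped adapters and mapped reads to GRCm38 with HISAT2 2.1.0. They tabulated FPKM per canonical coding transcript (GENCODE vM9) with StringTie 1.3.5 and ballgown. FPKM of every time point were then scaled to 2 spike-in RNAs. They kept transcripts at 1 FPKM or more at 0 h and not at 0 at 1 and 2 h, and fitted half-lives by least absolute deviations with a 6 h ceiling. The deposited FPKM values and half-lives were used as given; depth is unknown, and no count test was run. The transcript lengths, coding regions and coordinates are from GENCODE M21 (GRCm38), and microRNA sequences from RefSeq (GRCm38.p6).

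Tests used limma 3.58.1 (R 4.3.3), fitted on all transcripts, with Benjamini-Hochberg adjustment and a threshold of 0.05: log2 half-life; log2(FPKM + 1) at 0 h; slopes over the chase with an intercept for each replicate series; and the difference of slopes. Transcripts at the ceiling in every replicate have no measured spread. The slope tests count the libraries of a series as separate observations, so their p-values do not measure the spread of slopes between series. With log2(FPKM + 1), changes of low transcripts are understated. The fits were tested on simulated data. No 2 replicates held identical values. Alternatives were another pseudocount (0.1), a filter at 5 FPKM, median-centring, refitted half-lives, no 6 h libraries, the replicate number as a block, and leaving out each replicate. All 10 members are named; of 45 other pathway genes, those past the threshold could be named, with per test the 2 that changed most each way. The members and lists were chosen with earlier results of these data known. A few marker and nearest-pattern results are not reported here.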

Additional observations from a re-analysis of the deposited data

Results flagged for a closer look

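The slope of the chase differed between OLs and OPCs for 4 members, by a test of the difference itself (limma, cell type by time). That test counts single libraries, so its p-values do not measure the spread of slopes between replicate series. The difference, OL minus OPC in log2(FPKM + 1) units per h, was 0.35 for Xpo5, 0.32 for Drosha, 0.27 for Dicer1 and 0.19 for Ago2. All were shallower in OLs, as were 32.1% of all transcripts. With each library centred on its median none of the 4 passed, and without OL replicate 2 none passed on the deposited scale either. Their cause was not tested. The groups held 3 and 2 series, too few for a test of single replicates that stand apart, though each was left out in turn.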

How the results depend on the processing

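Ago3 at 0 h kept its direction and call under every alternative run. The other calls between cell types among the members depended on single replicates or on the scale. Among the declines during the chase, those of Dgcr8 and Ago2 in OLs kept their direction and call under every alternative. Leaving out 1 replicate (a lone sample was then assumed to vary like the other group), the members called ranged from 1 to 4 at 0 h, 0 to 4 for the slope difference and 0 to 1 for half-life. All transcripts called ranged from 896 to 2605, 746 to 2722 and 167 to 236. These also turned sign: half-life of Tnrc6b (−0.29 to 0.50), Drosha (−0.0153 to 0.79) and Ago1 (−0.51 to 0.0332); 0 h level of Tnrc6c (−0.12 to 0.14), Tnrc6b (−0.16 to 0.39) and Tnrc6a (−0.0131 to 0.73); slope difference of Ago3 (−0.0452 to 0.0698) and Ago1 (−0.00316 to 0.12). The study matches both OL series to OPC replicates without saying which. Deviations of same-numbered replicates correlated at 0.0589 and 0.0102 at 0 h and at −0.00162 and −0.105 in half-life; the deviations of 2 OL series mirror each other, so these values could not show whether the numbers pair the samples. With the replicate block 1 member and 1932 of 8177 transcripts were called at 0 h. Ago3 held (limma, adjusted p = 0.000175), and Xpo5 (0.0550), Ago1 (0.0547) and Drosha (0.0864) were lost. By half-life 0 transcripts were called with the block, and the difference of Ago1 turned from −0.18 to 0.0275 on the log2 scale.

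Median-centring called 1 transcript by half-life and turned the members' median to −0.37, with Dgcr8 at −0.49, Tnrc6c −0.000798, Dicer1 −0.24, Ago2 −0.27, Tnrc6b −0.80, Ago3 −0.69, Xpo5 −0.0271, Drosha −0.47 and Tnrc6a −0.28. For the slope difference it called 2 members (Ago1 and Ago3, steeper, as were 22.5% of all transcripts) and turned the median to −0.0395 (all transcripts −0.0681), with Dgcr8 at −0.0689, Tnrc6c −0.0215, Ago2 −0.0267, Tnrc6b −0.16, Ago3 −0.20, Tnrc6a −0.0523 and Ago1 −0.17. Within OPCs it called 4578 transcripts and 2 members, Ago3 (0.18) and Ago1 (0.17), both as rising. The members' median was there −0.00279, with Tnrc6c at 0.0277, Tnrc6b 0.0508 and Tnrc6a 0.0199. Within OLs it called 4391 transcripts and 3 members, Xpo5 as rising (0.12) and Dgcr8 (−0.11) and Ago2 (−0.11) as falling. The members' median was there −0.0192, with Tnrc6c at 0.0142 and Ago1 at 0.00802. Rescaling to 1 mean decay curve put the half-life median at −0.00755, with Dgcr8 at −0.0762, Tnrc6b −0.32, Ago3 −0.66 and Drosha −0.50. Without the 6 h libraries half-life gave 30 calls (Ago3 −0.69, Drosha −0.44), the slope difference 2 members (Dicer1 and Ago2; Xpo5 and Drosha were lost) and 1622 transcripts (Ago3 −0.0245, Ago1 −0.0105), and the median slopes −0.56 in OPCs and −0.33 in OLs. Half-lives in h rather than log2 gave 600 calls. The causes were not tested. Of the other values, 102 counts and medians and 364 single-gene values kept their size or side of the threshold. Unknown depth limits low levels most, such as Ago3 in OPCs.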
